A study of Mus musculus with 5 samples.

Results

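The regions described here are YAP peaks of mouse fibroblasts that coincide with a peak of each of Myc, TEAD and RNA polymerase II (RNAPol2). They were chosen by overlap of the called peak lists: a peak of the YAP list is a quadruple peak where it shares at least 1 bp with a Myc peak, a TEAD peak and an RNAPol2 peak. The rule took 2723 of 10293 YAP peaks, or 26.5% (Wilson 95% interval 25.6 to 27.3%). Because the same lists chose the regions, the heights and positions of their peaks are given as a description, with no test.

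Chromatin was taken from 3T9MycER;YAP cells, immortalized mouse embryonic fibroblasts listed in the labels under the genotype 3T9MycER. These cells express MycER, a Myc protein that 4-hydroxytamoxifen (OHT) activates, and, after infection with a retroviral vector and drug selection, a doxycycline-inducible YAPS127A, a YAP mutant that the Hippo kinases restrain less. The Myc, TEAD, RNAPol2 and YAP samples all had 400 nM OHT and 2 µg/ml doxycycline, so no untreated peak list enters any comparison. The paper that reported these data describes the fibroblasts of its Myc, YAP and TEAD peak figure as serum-starved and highly confluent. With only 1 sample per antibody, the spread between replicates is unknown and no test was made. The intervals below cover counting error over peaks of those samples, taken as independent. Cells were fixed with 1% formaldehyde, and for YAP with the longer crosslinker DSG first, so the fixation of the YAP sample differed from the others. The Myc antibody, N262, was raised against the amino-terminal part of Myc, which MycER and the cells' own Myc share. The RNAPol2 antibody, N20-X, was raised against the amino terminus of the largest subunit and does not tell initiating from elongating polymerase. The labels do not say which TEAD protein the TEAD antibody sees. The remaining sample, an input with an IgG in its antibody field, gave no peak list.

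YAP is a coactivator without a DNA-binding domain of its own and reaches chromatin mostly through the TEAD proteins, which bind short motifs at enhancers and promoters. The kinases of the Hippo pathway hold it in the cytoplasm at high cell density. Myc binds DNA with its partner Max, prefers the E-box, and is found mostly at promoters that are already open and hold RNAPol2, the enzyme that transcribes messenger RNA.

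The ChIP libraries held 20441605 tags for Myc to 38345189 for RNAPol2, and 1 larger control library served all 4 lists. Height is given as fold enrichment, the pileup of ChIP tags at the peak's summit over the local background that the peak caller took from the control. Since the lists differ in length and depth, a peak's height is also given as its percentile within its own list. A percentile depends on how many weaker peaks its list holds, so percentiles of unlike lists are not on 1 scale. Where a YAP peak touched several peaks of a factor, the one whose summit lay nearest was taken, which concerned 26 quadruple peaks for Myc, 38 for TEAD and 19 for RNAPol2.

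Most YAP peaks with Myc and TEAD also held polymerase: the quadruple peaks were 2723 of 3111 such peaks (87.5%, 86.3 to 88.6%). Over all YAP peaks, 4943 of 10293 touched an RNAPol2 peak. The quadruple peaks were 2723 of 4802 YAP peaks with TEAD and RNAPol2 (56.7%, 55.3 to 58.1%). Among all YAP peaks, with or without RNAPol2, 3111 of 10293 held Myc and TEAD. Seen from the other lists they were a minority of sites. They touched 2588 of 14354 Myc peaks (18.0%), 2627 of 48571 TEAD peaks (5.41%) and 2509 of 49650 RNAPol2 peaks (5.05%). Peaks of the comparison classes numbered 388 (YAP, Myc and TEAD without RNAPol2), 2079 (YAP, TEAD and RNAPol2 without Myc) and 4236 (YAP and TEAD with neither).

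At the quadruple peaks TEAD and RNAPol2 were high for their lists, and YAP and Myc were not. The TEAD and RNAPol2 lists are much the longer, at 48571 and 49650 peaks, against 10293 for YAP and 14354 for Myc. How much of the difference in percentile between factors comes from list length was not tested. The median YAP fold enrichment was 6.93 (6.86 to 7.13), with the middle 50% of peaks from 5.56 to 9.81 and a highest value of 63.95. The median TEAD fold enrichment was 18.45 (17.82 to 19.12), the median Myc fold enrichment 9.10 (8.88 to 9.37) and the median RNAPol2 fold enrichment 14.44 (13.83 to 15.17). These medians lay at the percentiles 59.5 for YAP, 48.9 for Myc, 89.9 for TEAD and 83.8 for RNAPol2. Of the quadruple peaks, 75.8% fell in the strongest 25% of the TEAD list and 67.9% in that of the RNAPol2 list, against 35.1% for YAP and 26.1% for Myc. The high TEAD percentile was not particular to them. Its median was 90.5 at YAP peaks without Myc, 86.0 without RNAPol2 and 86.0 with neither. The RNAPol2 percentile had a median of 61.4 without Myc. Of the quadruple peaks, 162 (5.95%) were in the strongest 25% of all 4 lists at once. Whether that count differs from that of unrelated heights was not tested.

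**Figure D1:**
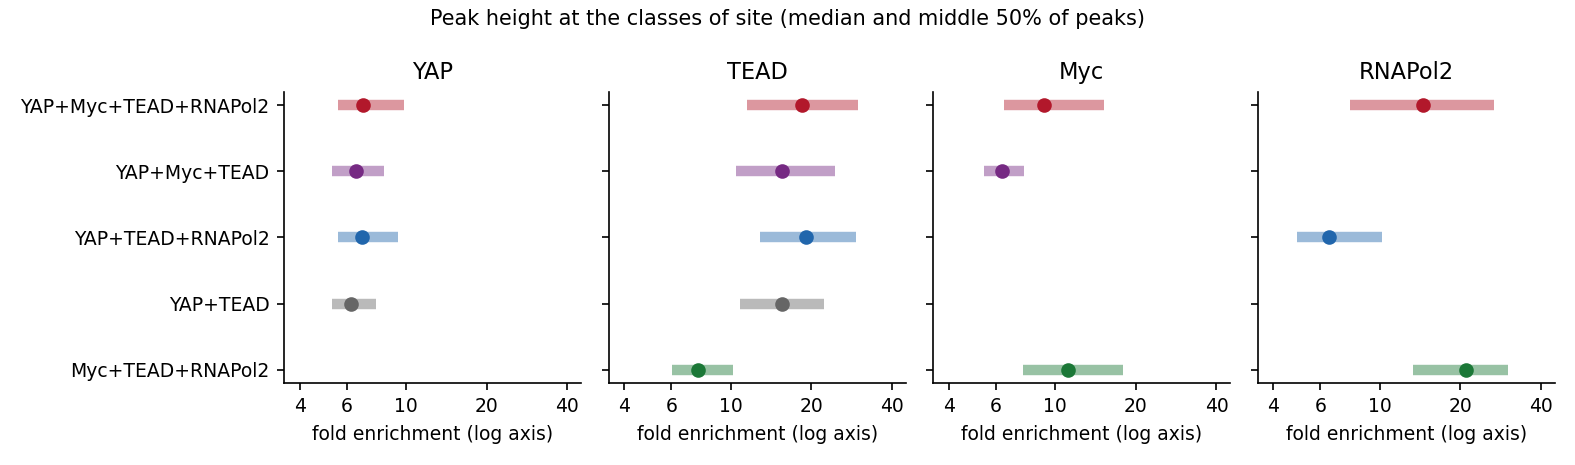
Fold enrichment on a log axis for each factor (panels) at 5 classes of site (rows, named by the factors present). Points are medians and bars the middle 50% of peaks. The top 4 rows are YAP peaks, and the bottom row is Myc peaks with TEAD and RNAPol2 but no YAP. The YAP medians of the YAP classes lie between 6.24 and 6.93, while RNAPol2 ranges from 6.47 without Myc to 20.98 without YAP.

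YAP itself differed little in height between the quadruple peaks and those that lacked a factor. Without Myc its median fold enrichment was 6.86 (6.69 to 7.0), a ratio of 1.01 that the intervals of both medians leave between 0.98 and 1.07. Without RNAPol2 it was 6.49 (6.24 to 6.86), and with neither 6.24 (6.24 to 6.37). TEAD had a median of 18.45 at the quadruple peaks and of 19.09 (18.43 to 19.63) without Myc. It was lower without RNAPol2, at 15.56 (13.97 to 16.86), and with neither, at 15.59 (15.16 to 15.80).

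The polymerase and Myc heights differed far more between the same classes. RNAPol2 had a median fold enrichment of 14.44 at the quadruple peaks and 6.47 (6.28 to 6.63) at the YAP peaks with TEAD and RNAPol2 but no Myc. Its peaks were 1240 bp wide at the median in the first class and 602 bp in the second. Myc had a median of 9.10 with RNAPol2 and of 6.35 (6.16 to 6.65) at the 388 peaks without it. Every peak in a class had to pass the caller's cutoff for each factor it holds, so these medians leave out signal below it.

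Set against Myc sites that held TEAD and RNAPol2 but no YAP peak, the quadruple sites had higher TEAD and lower Myc and RNAPol2. There were 6322 such Myc peaks, beside 2575 Myc peaks that overlapped a quadruple peak and themselves touched a TEAD and an RNAPol2 peak. For these comparisons the TEAD and RNAPol2 peak nearest to the Myc summit was taken. TEAD had a median fold enrichment of 18.40 (17.71 to 19.12) at the Myc peaks of the quadruple class and of 7.58 (7.45 to 7.64) where YAP was missing. Myc was lower with YAP, at 8.89 (8.77 to 9.21) against 11.12 (10.80 to 11.33), and so was RNAPol2, at 14.13 (13.60 to 14.91) against 20.98 (20.63 to 21.39). Counting each RNAPol2 peak once gave 13.60 at 2509 peaks with YAP and 20.30 at 6080 without, a ratio of 0.67 that the intervals of both medians leave between 0.62 and 0.72. The RNAPol2 peaks of these classes were alike in width, with medians of 1157 and 1170 bp. With these lists, the polymerase median of quadruple peaks lay between those of YAP sites without Myc and of Myc sites without YAP. The median of 14.44 depends on the lists: it was 24.16 when all lists were shortened to the 10293 strongest peaks.

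Across the quadruple peaks the heights went together in pairs. YAP and TEAD had a rank correlation of 0.70 and Myc and RNAPol2 one of 0.55 (Spearman, n = 2723 peaks). The other pairs were near 0, at -0.09 for YAP and Myc, -0.10 for YAP and RNAPol2, -0.11 for Myc and TEAD and -0.10 for TEAD and RNAPol2. These are correlations over peaks of single libraries that share 1 control, and peaks are not replicates. With pileup, which does not use the control, the values were 0.74 for YAP and TEAD and 0.53 for Myc and RNAPol2, and the other 4 pairs lay between -0.12 and -0.06. At the 503 quadruple peaks whose control level was within 5% of its floor in all 4 lists, so that the fold enrichment carries almost no difference in the control, they were 0.73 and 0.55, with the other pairs between -0.21 and -0.17.

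The YAP and TEAD correlation was also seen in the other YAP classes, at 0.66 without RNAPol2, 0.68 without Myc and 0.58 with neither. The Myc and RNAPol2 correlation was 0.49 at Myc peaks without YAP. YAP and Myc had a rank correlation of 0.17 at the 388 peaks without RNAPol2, against -0.09 at the quadruple peaks.

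**Figure D2:**
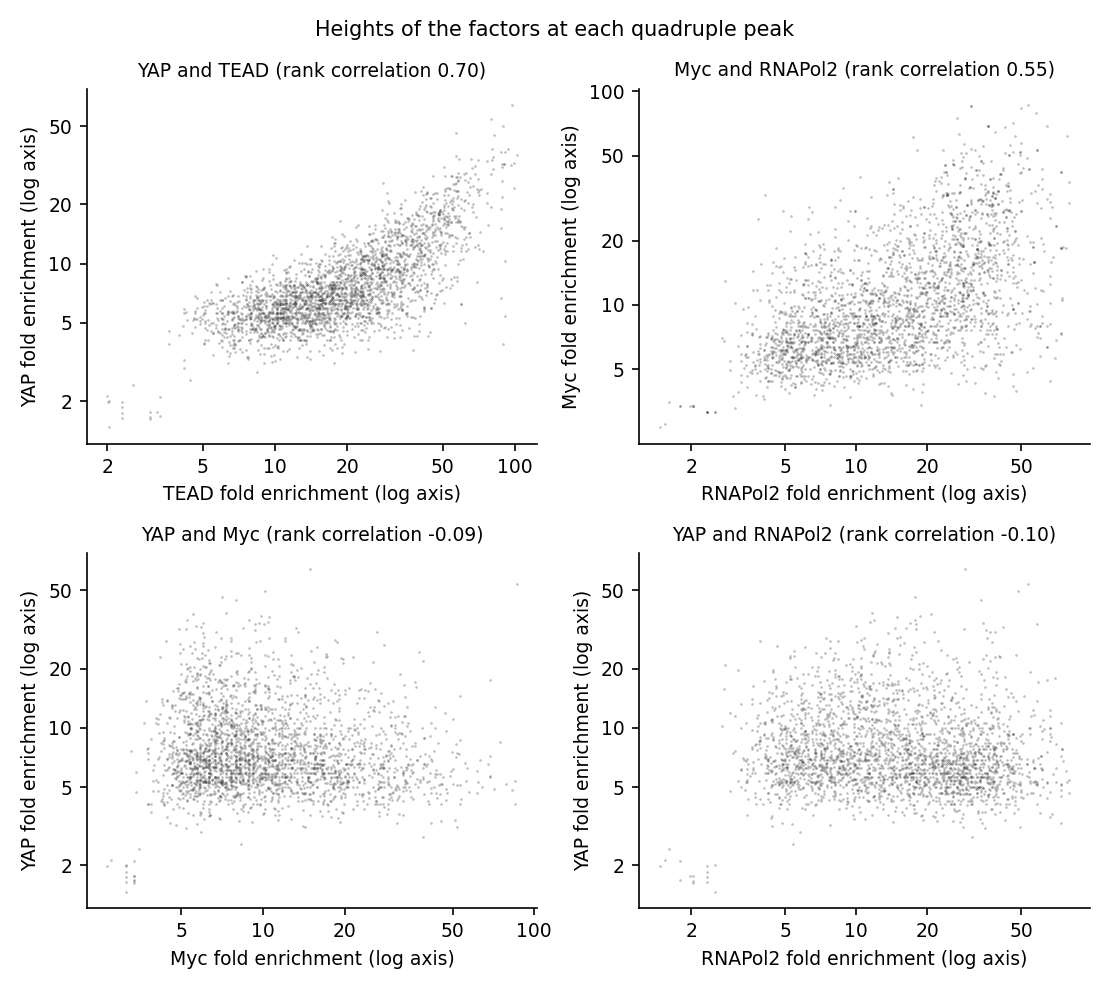
Fold enrichment of pairs of factors at the 2723 quadruple peaks, 1 point per peak, both axes logarithmic, with the rank correlation above each panel. YAP follows TEAD (0.70) and Myc follows RNAPol2 (0.55), while YAP has weak negative correlations with Myc (-0.09) and RNAPol2 (-0.10). The few points at the lower left of each panel lie at regions of high control level.

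Quintiles of the quadruple peaks show how wide these ranges were. From the lowest to the highest quintile by YAP height, the median TEAD fold enrichment went from 10.74 (10.18 to 11.19) to 41.36 (39.91 to 42.85). Over the same quintiles Myc went from 10.06 to 8.10 and RNAPol2 from 17.66 to 11.93. The strongest YAP peaks thus stood at the highest TEAD peaks. The already weak relations of YAP to the other factors were weaker still without chromosomes 10, 15 and 19, whose control level was raised, with rank correlations of -0.03 for YAP and Myc and -0.04 for YAP and RNAPol2.

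Sorted by RNAPol2 height instead, the median Myc fold enrichment went from 6.39 (6.18 to 6.67) in the lowest quintile to 16.80 (15.75 to 18.12) in the highest. YAP medians over these quintiles were 6.96, 7.49, 7.47, 6.55 and 6.55, and TEAD medians 19.58, 21.27, 19.41, 15.78 and 16.48. YAP was therefore not higher where polymerase was higher. The RNAPol2 medians themselves ran from 5.23 to 38.28.

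Quadruple peaks high in some factors and not in others were also counted. There were 524 quadruple peaks (19.2%) in the strongest 25% of both the YAP and the TEAD list but the weaker 50% of the Myc list. Another 340 (12.5%) were in the strongest 25% of the Myc and RNAPol2 lists and the weaker 50% of the YAP list. Over all quadruple peaks, 35.1% were in the strongest 25% of the YAP list and 51.1% in the weaker 50% of the Myc list. For the second count, 26.1% were in the strongest 25% of the Myc list and 42.0% in the weaker 50% of the YAP list. Whether either count differs from that of unrelated heights was not tested.

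Because YAP followed TEAD, YAP heights were also set side by side at like TEAD height, using quintiles of the pooled YAP peaks that held TEAD. In the lowest quintile the median YAP fold enrichment was 5.30 at quadruple peaks and between 5.24 and 5.32 in the other 3 classes. In the highest quintile, with a TEAD fold enrichment of 28.65 to 101.80, the median was 12.48 (11.90 to 12.98, n = 733) at quadruple peaks. There it was 11.10 (10.61 to 11.56, n = 543) without Myc, 10.04 (8.93 to 11.06, n = 71) without RNAPol2 and 9.78 (9.36 to 10.19, n = 538) with neither. So the classes parted mainly where TEAD was highest. TEAD is not equal within that wide quintile, and how much of the difference this accounts for was not tested.

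**Figure D3:**
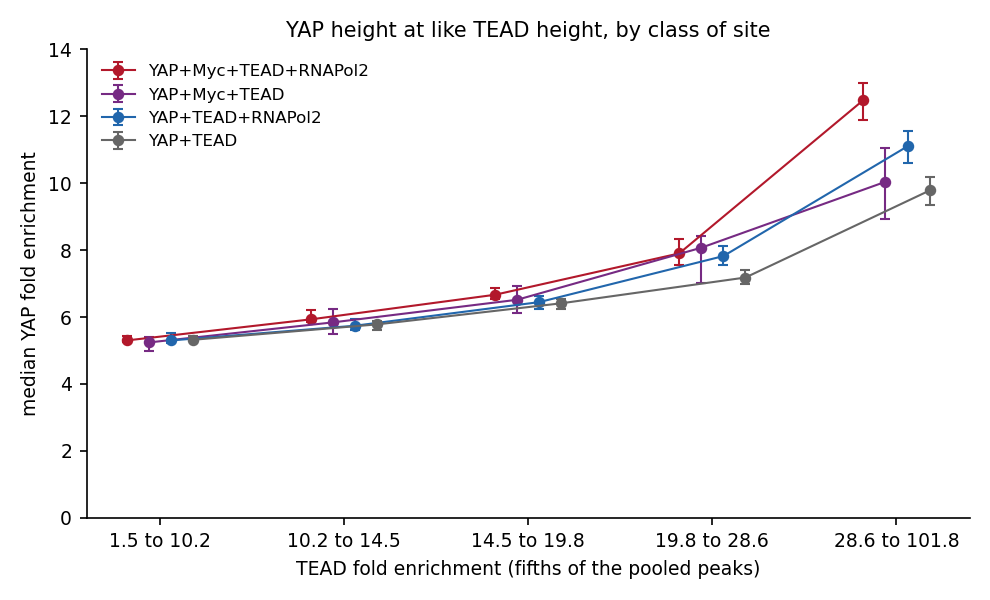
Median YAP fold enrichment (vertical axis, from 0) in quintiles of TEAD fold enrichment (horizontal axis) for 4 classes of YAP peaks, with 95% intervals of the median. The classes lie together near 5.3 in the lowest quintile and spread from 9.78 to 12.48 in the highest.

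In space the summits showed the YAP and TEAD pair clearly, and the Myc and RNAPol2 pair less so. The YAP summit lay 52 bp (49 to 55) from the TEAD summit at the median, and 155 bp (148 to 162) from the Myc summit. It lay 185 bp (177 to 194) from the RNAPol2 summit. The Myc summit was nearer to that of RNAPol2, at 133 bp (126 to 140), than YAP or TEAD was, and lay 160 bp from that of TEAD. TEAD and RNAPol2 summits were 184 bp apart. All 4 summits fell within 250 bp at 1077 quadruple peaks (39.6%) and within 1000 bp at 2440 (89.6%), and their median span was 316 bp. With sonicated fragments of about 250 bp, many of these distances are within the length of a single fragment.

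Counted peak by peak, YAP sat next to TEAD. At 1938 of 2723 quadruple peaks (71.2%, 69.4 to 72.8%) the YAP summit was nearer to the TEAD than to the Myc summit. At 1334 (48.99%) the YAP and TEAD summits were within 50 bp of each other, against 507 (18.6%) for YAP and Myc and 359 (13.2%) for YAP and RNAPol2. Of the 3 factors, Myc was nearest to the RNAPol2 summit at 52.6% of the peaks, TEAD at 23.7% and YAP at 23.0%. Seen from Myc the pair was weaker: its summit was nearer to RNAPol2 than to YAP at 53.6% of the peaks. It was nearer to RNAPol2 than to TEAD at 55.3%. The Myc and RNAPol2 summits lay on the same side of the YAP summit at 1984 of 2711 peaks (73.2%, 71.5 to 74.8%) where neither coincided with it. Where both were over 100 bp from it, they did so at 1201 of 1419 (84.6%, 82.7 to 86.4%). More of the possible orders of 3 summits place YAP at an end than in the middle, so the same side is favoured without any relation. No expected share was computed for either count.

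The distances to the RNAPol2 summit also differed in shape. Myc distances were most frequent close to the polymerase summit, with 640 peaks at 0 to 49 bp, 489 at 50 to 99 bp and 345 at 100 to 149 bp. TEAD distances were fewer at 0 to 49 bp, with 302 peaks, than at 100 to 149 bp, with 412. YAP had 352 and 383 in those windows, a nearly level profile. Near the polymerase summit, Myc summits were thus most frequent, and those of YAP and TEAD were not.

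**Figure D4:**
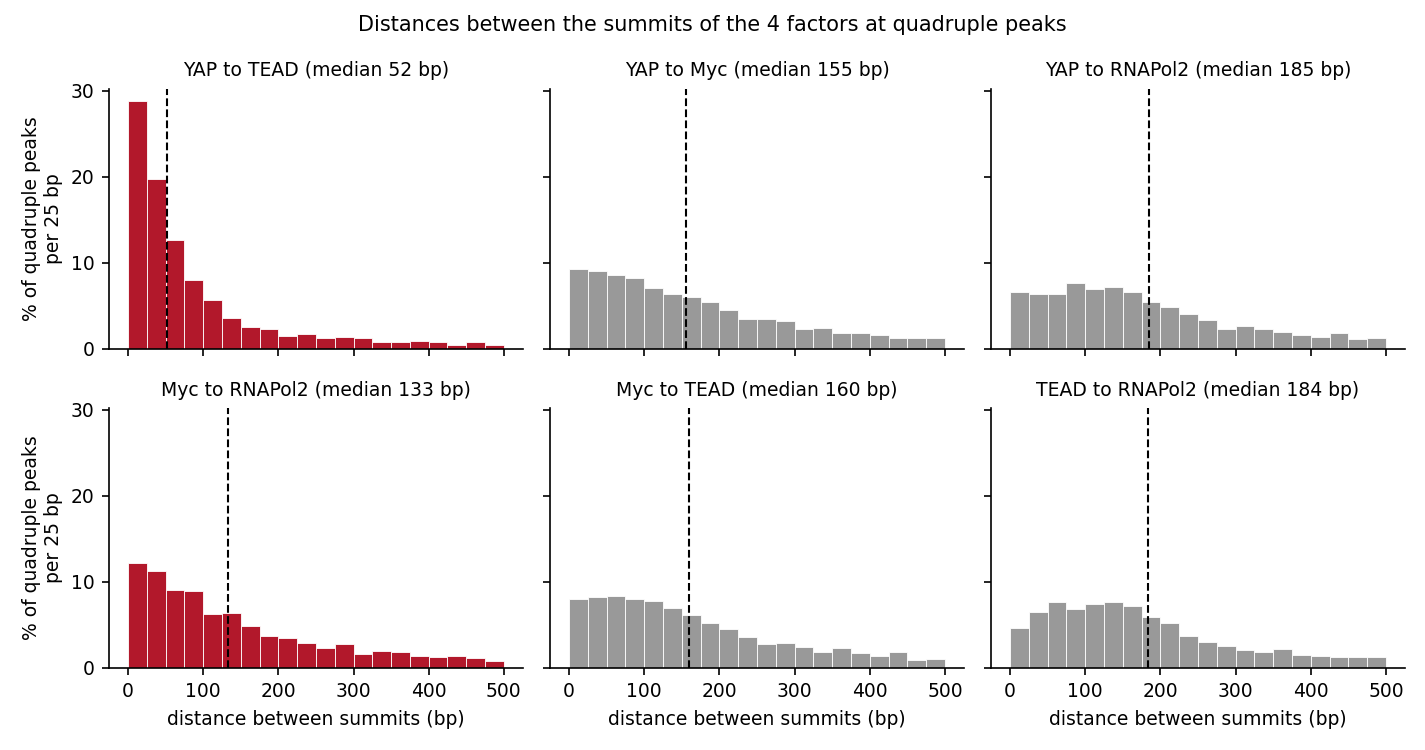
Share of the 2723 quadruple peaks (vertical axis, percent per 25 bp) by the distance between the summits of each pair of factors (horizontal axis, up to 500 bp). Dashed lines are medians over all quadruple peaks. The YAP to TEAD distances crowd at the left, with a median of 52 bp. The TEAD to RNAPol2 distances are fewer in the first 25 bp than in each following bin up to 224 bp, and fewer still beyond.

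YAP and TEAD lay somewhat closer to each other, and to polymerase, where Myc was missing. The median YAP to TEAD distance was 40 bp (38 to 43) and the YAP to RNAPol2 distance 144 bp (137 to 152) at YAP peaks with TEAD and RNAPol2 but no Myc. The RNAPol2 peaks there were narrower, as given above, and at quadruple peaks the YAP to RNAPol2 distance went with the width of the RNAPol2 peak (rank correlation 0.45). At quadruple peaks on RNAPol2 peaks under 500 bp wide the median distance was 110 bp, and on those of 5000 bp or more it was 810 bp. Across the same width classes the YAP to TEAD median stayed between 43 and 68 bp.

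The distance to TEAD was shorter at stronger YAP peaks. It was 113 bp (95 to 127) in the lowest quintile of YAP height and 23 bp (21 to 26) in the highest. The distance from YAP to Myc went from 178 to 132 bp over the same quintiles. The distance from Myc to RNAPol2 was 139 and 128 bp, with intervals that overlap.

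Most YAP peaks sat wholly inside the broader peaks of their partners. This was so for 79.2% with TEAD, 74.5% with RNAPol2 and 44.1% with Myc, and the YAP summit was inside all 3 partner peaks at 81.9%. Median widths were 395 bp for YAP, 683 bp for Myc, 816 bp for TEAD and 1240 bp for RNAPol2, whose widest partner reached 33324 bp. In RNAPol2 peaks of 1000 bp or more, 26.5% of YAP summits lay in the central 20% of the peak's length. A share of 24.3% lay in the outermost 20% at each end, both ends pooled. The pooled ends make up a longer stretch than the centre. For Myc these shares were 33.0% and 16.9%.

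Ranked by the lowest of their 4 percentiles, the first quadruple peak was chr7:148662117-148662914 (mm9, as are all coordinates here). It had fold enrichments of 54.16 for YAP, 86.08 for Myc, 79.30 for TEAD and 53.58 for RNAPol2, and the lowest of its 4 percentiles was 99.6. Its YAP and TEAD summits were 2 bp apart and its Myc summit 290 bp from that of YAP. It had the highest Myc and the second-highest YAP value of all quadruple peaks.

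The next by the same measure were chr6:120314027-120314460 and chr5:137754984-137755828. The first had 17.47 for YAP, 68.61 for Myc, 41.05 for TEAD and 64.67 for RNAPol2, with all other summits within 37 bp of that of YAP. The second had 21.84 for YAP, 38.99 for Myc, 88.45 for TEAD and 36.84 for RNAPol2. Then came chr13:101500488-101501054, chr9:58160901-58161446 and chr13:48641259-48641650, with YAP between 13.65 and 17.16 and RNAPol2 between 35.24 and 59.23. All 6 had a YAP to TEAD distance of at most 52 bp, while the Myc summit of chr9:58160901-58161446 lay 1549 bp away in an RNAPol2 peak of 11536 bp.

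The highest peaks of single factors were mostly not high in all. The highest YAP peak, chr9:63744055-63744793, had 63.95 for YAP, 97.67 for TEAD, 14.93 for Myc and 29.09 for RNAPol2. It was an exception, being high in all by percentile. Its percentiles were 100 for YAP, 75.4 for Myc, 99.99 for TEAD and 94.95 for RNAPol2. The third-highest YAP peak, chr5:143720609-143721520, had 49.92 for YAP, 89.57 for TEAD and 48.40 for RNAPol2. It had 10.22 for Myc and a Myc summit 1605 bp off. The highest TEAD peaks were at chr13:60466192-60466777 (101.80), chr2:131832116-131832928 (99.65) and chr19:8776851-8777330 (99.59). Their YAP values were 35.56, 24.21 and 32.61 their Myc values 8.89, 10.88 and 5.92 and their RNAPol2 values 11.93, 18.00 and 41.78. These 5 were picked for their YAP or TEAD height. Each was also high in the other of the pair, with Myc at most 14.93 and RNAPol2 from 11.93 to 48.40. The second-highest YAP peak, the chromosome 7 region above, is not among these 5. It was also high in all, with 86.08 for Myc.

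At the highest Myc and RNAPol2 peaks after the chromosome 7 region, YAP was low. The quadruple peaks chr15:79157923-79158191 and chr15:79158922-79159124 shared 1 Myc peak of 84.90 and 1 RNAPol2 peak of 30.77, and had 4.08 and 5.38 for YAP. The highest RNAPol2 values were 80.16 at chr6:51420166-51420407, 79.72 at chr17:80606400-80606641 and 78.28 at chr6:72389111-72389473. Myc was 29.86, 37.78 and 61.94 there. YAP was 4.66, 5.45 and 5.30, below the median of the quadruple peaks at each.

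Quadruple peaks at times shared a polymerase peak. Of the 2509 RNAPol2 peaks they touched, 196 (7.81%) held 2 or more, and 429 quadruple peaks (15.8%) had company in their RNAPol2 peak. The most, 5, lay in the RNAPol2 peak chr5:143570462-143586971, which was 16510 bp wide with a fold enrichment of 66.12. They touched 5 Myc and 5 TEAD peaks and their YAP summits were spread over 5723 bp, with YAP from 3.52 to 11.54. Of the 5 RNAPol2 peaks tied as partners of 4 each, those that come first when chromosome names are sorted as text were chr10:79446973-79456785 and chr15:10993396-10996487, the first with 4 Myc peaks and the second with a single Myc peak of 32.79. The nearest other quadruple peak was 61958 bp away at the median (n = 2722), and within 1000 bp for 295 of them (10.8%).

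Of the overlaps that the rule asks for, those with RNAPol2 were looked at near its edge. There were 11 quadruple peaks that overlapped their RNAPol2 peak by under 50 bp. Where each overlap had to cover 50% of the shorter peak, 2388 peaks met the rule. The smallest overlaps were 4 bp at chr13:49283596-49283813, 5 bp at chr15:59609397-59609633 and 26 bp at chr1:166711390-166711629. The nearest YAP, Myc and TEAD peaks outside the rule missed an RNAPol2 peak by 10 bp at chr12:112659767-112660120, 15 bp at chr9:61218152-61218378 and 18 bp at chr19:53926887-53927393. YAP was 5.74, 3.62 and 5.62 at the first 3 and 6.99, 7.49 and 8.61 at the latter. Most of the 388 peaks without RNAPol2 were far from one, with a median gap of 31470 bp and only 36 within 1000 bp.

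Quadruple peaks were found on chromosomes 1 to 19 and X, in unequal numbers. They made up 34.5% of the YAP peaks on chromosome 19 (30.9 to 38.3%) and 33.2% on chromosome 5, and 7.74% on X (12 of 155, 4.48 to 13.0%). Chromosome 15 held 409, or 15.02% of all quadruple peaks, and 1457 of the 10293 YAP peaks. Quadruple peaks were 28.1% of its YAP peaks, near the 26.5% over all YAP peaks. Of the RNAPol2 peaks with Myc and TEAD there, 58.0% were at quadruple peaks, against 43.3% on chromosome 19, 7.43% on X and 18.3 to 32.1% on every other numbered chromosome. The quadruple peaks of chromosome 15 had a median YAP fold enrichment of 6.17 and TEAD of 13.89. The control level at its quadruple peaks was at a median of 1.55 times the floor of the YAP list, with 1.52 on chromosome 10 and 1.38 on chromosome 19, and at most 1.23 on the other numbered chromosomes and X. The part of that control level in the number of peaks was not tested.

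**Figure D5:**
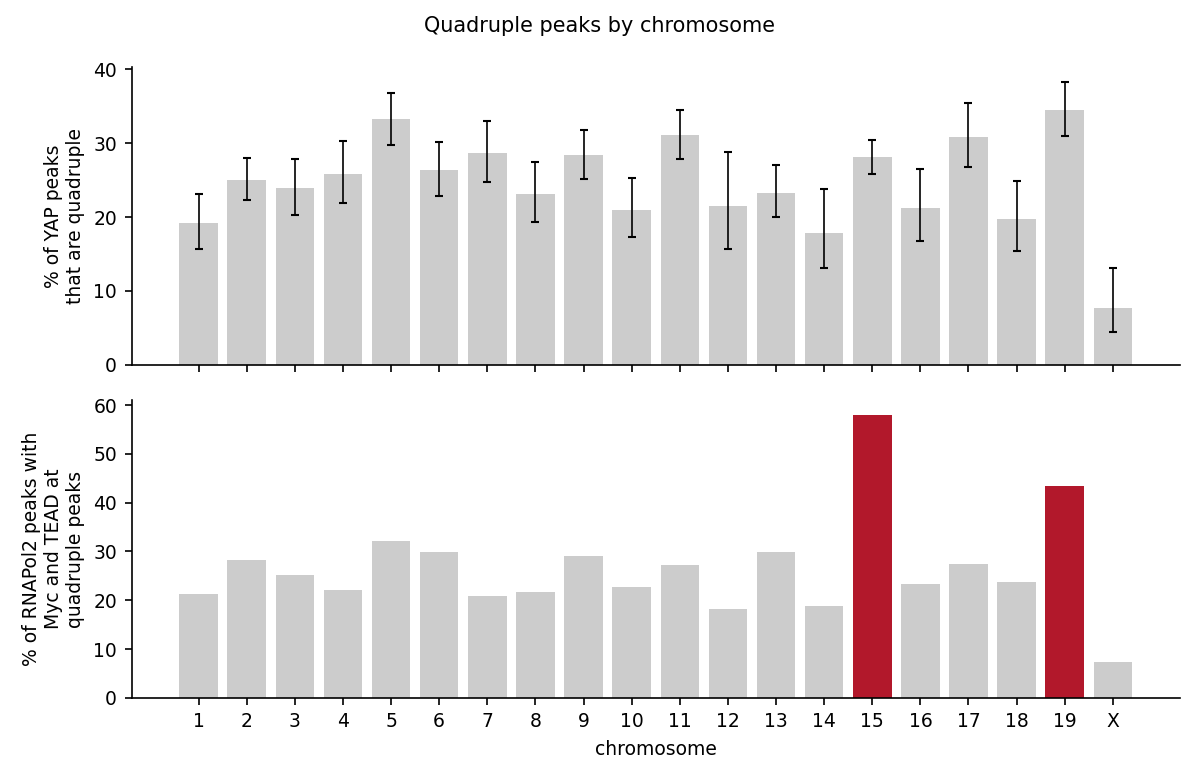
Upper panel: percent of each chromosome's YAP peaks that are quadruple, with Wilson 95% intervals. Lower panel: percent of its RNAPol2 peaks with Myc and TEAD that lie at quadruple peaks, with chromosomes 15 and 19 in colour. Chromosome 15 reaches 58.0% in the lower panel and only 28.1% in the upper, and X is lowest in both.

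A small group of quadruple peaks had little enrichment over a very high control. At 16 of them, singled out after their values were seen, the control level was over 10 times the floor of the YAP list, and their YAP fold enrichments were only 1.47 to 2.95. All 6 YAP peaks of the mitochondrial sequence met the rule and were among them, with control levels of 22.2 to 32.9 times the floor. A further 6 lay in chr17:39979908-39985766, 2 in chr2:98502368-98507464, 1 on chromosome 17 near its start and 1 on unplaced sequence. Among the other 2707 quadruple peaks the lowest YAP fold enrichment was 2.56. Without the 16 the median YAP fold enrichment was 6.96, the YAP to TEAD distance 52 bp and the correlations 0.70 for YAP and TEAD and 0.54 for Myc and RNAPol2.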

How the data were processed

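ChIP-seq peak lists of Myc, RNAPol2, TEAD and YAP (1 sample each, grouped by sample title) were used. Tools named in the submitters' processing notes are BWA 0.6.2, SAMtools and MACS2 2.0.9, with mm9 as the build. Peaks were called by the authors, per the file headers, for each sample on its own at a p-value cutoff of 1e-05 against 1 control library, keeping at most 2 tags of 51 bp per position. The sources used here do not say if that control was the input sample. The deposited signal is the pileup of extended tags at the summit, and the deposited fold enrichment is its ratio to a local background, which is the highest control level among the whole genome, a window of 1000 bp and a window of 10000 bp. For each peak the authors' caller wrote its p-value as −log10, its q-value as −log10, and the positions of the peak and summit (other deposited values).

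From these, overlaps of at least 1 bp, distances between summits, medians with exact binomial (order-statistic) 95% intervals, shares with Wilson 95% intervals and Spearman correlations were computed in Python 3.11.15 with numpy 2.4.6, pandas 2.3.3 and scipy 1.17.1 (figures, matplotlib 3.10.9). The bounds of a ratio divide the outer bounds of its medians. Dividing pileup by fold enrichment gave the control level at a peak, whose floor is the minimum over a list. The routines were tested on simulated data. All intervals and depths (20441605 to 38345189 tags) speak of counting error in 1 sample.

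The members, the classes and the rules were chosen with earlier results of these data known. Named regions are the 6 quadruple peaks whose lowest percentile over the 4 lists is highest, the 3 highest by each factor, the 3 RNAPol2 peaks with the most quadruple peaks (ties by position, chromosome names sorted as text), and the 3 peaks nearest to the rule's edge on either side. Alternatives changed the overlap, the lists, the height, the partner peak or the chromosomes. The gene and promoter tables at hand are of GRCm38.p6 and the files are in mm9, so genes, promoters and motifs of the peaks were not analysed here.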

Additional observations from a re-analysis of the deposited data

How the results depend on the processing

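The count of 2723 quadruple peaks moved most with the lists. It was 1261 with summits within 250 bp, 697 with the stronger 50% of each list, 1080 where every peak had a −log10 q of 10 or more and 905 when all lists were shortened to the 10293 strongest peaks. Over 50% overlap of the shorter peak, main chromosomes, leaving out chromosomes 10, 15 and 19, and leaving out the top 1% of RNAPol2 peaks it ran from 2013 to 2716. In the order of those first 4 alternatives the YAP to TEAD distance (52 bp) was 37, 36, 34 and 41 bp, and it was 46 bp without chromosomes 10, 15 and 19. The share of YAP summits nearer to TEAD than to Myc (71.2%) was 79.5% in the stronger 50%, 78.9% by −log10 q, 75.03% with shortened lists and 73.2% without those chromosomes. The ratio of YAP heights over peaks without Myc (1.01) was 0.965 in the stronger 50% and 0.994 by −log10 q, on the other side of 1, and that over peaks without RNAPol2 (1.07) was 0.958 with shortened lists. The ratio of RNAPol2 heights over sites without YAP (0.67) was 0.508 with summits within 250 bp, 0.845 in the stronger 50%, 0.927 with shortened lists (interval 0.846 to 1.01), 0.732 by pileup and 0.604 by −log10 p. It stayed under 1 in all 10 alternatives run for it. The median RNAPol2 height (14.44) was 24.16 with shortened lists, 21.58 in the stronger 50% and 10.20 with summits within 250 bp. Lists limited by height hold fewer and higher peaks by construction.

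The correlation alternatives (pileup, −log10 p, chromosomes left out, control at the floor, 1 YAP peak for each RNAPol2 peak) the distance on RNAPol2 peaks of at most 5000 bp, and leaving out peaks of very high control level were added after seeing the data. YAP and TEAD ranged from 0.70 to 0.74, and Myc and RNAPol2 from 0.51 to 0.55. YAP and RNAPol2 (-0.10) ranged from -0.19 to -0.04 and YAP and Myc (-0.09) from -0.17 to -0.03, each weakest without chromosomes 10, 15 and 19. No replicate could be left out, and no paired analysis was possible because there is 1 sample per antibody.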
